A study of Mus musculus with 4 samples.

Results

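Calcium reaches its sensors in a cell through channels in the surface membrane and through release from the endoplasmic reticulum. Transcripts of 55 genes of this system were examined in sorted bulge stem cells: the sensors and pores of store-operated entry, release channels, the receptor and phospholipases upstream of release, pumps, membrane channels, calmodulin with its kinases, and scaffold or regulator proteins. Members were the rows of the deposited table whose platform annotation names exactly 1 gene of this list. Of the 55 genes 51 had such a row, among 19935 genes named in all, and Itpr1, Atp2b4, Cacnb3 and Camkk1 were not analysed here. The values of the 51 measured genes come from 57 rows, since 6 genes had 2 rows each.

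The arrays compare 2 samples from male CD-1 mice given CSA, at 100 mg/kg by intraperitoneal injection for 3 days, with 2 samples from male CD-1 mice given the vehicle in the same way. All animals were 56 days old, an age at which the follicles are in their second telogen, when hair growth rests. Cells were sorted by flow cytometry for both CD34 and alpha6 integrin, which mark the bulge, where the follicle keeps quiescent stem cells. The labels call the 2 samples of a group biological replicates without giving the number of mice behind each. CSA is not spelled out there; in work on calcineurin it stands for cyclosporine A.

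When receptors at the cell surface activate phospholipase C, the product inositol trisphosphate opens channels in the reticulum. STIM proteins sense the emptied store and open ORAI pores in the surface membrane, and pumps then return calcium to the store or out of the cell. Calcium bound to calmodulin activates both calcineurin and the CaM kinases. Calcineurin is the phosphatase that moves NFAT transcription factors into the nucleus and that cyclosporine A blocks, so most of these genes encode steps before the drug's target or the parallel kinase branch, and a few of the regulators act on calcineurin or NFAT. In skin, mutations of the pump genes ATP2A2 and ATP2C1 cause the blistering disorders Darier disease and Hailey-Hailey disease. Calcium also drives keratinocytes to differentiate.

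Each value was read as a log2 distance from an unknown baseline for that row, so it compares arrays for 1 gene and does not rank genes by abundance. The 4 array medians over all rows lay between -0.02 and 0.06. Over the rows of the table, as a description, the 2 arrays numbered 2 correlated at a Pearson r of 0.516 and the 5 other pairs at 0.02 to 0.168. Of the sort markers, Cd34 was 1.75 and 3.60 with CSA and 4.05 and 4.25 with vehicle. Its difference, CSA minus vehicle, was -1.47 ± 0.67 (limma's standard error) without overlap of the groups, with an unadjusted limma p of 0.089. The integrin gene Itga6 differed by -0.16 ± 0.41 with overlap. Centred values cannot show whether a transcript was present, so the labelled cell type could be set against its markers only in this way. In such bulk samples fewer cells of a type and less RNA per cell cannot be told apart.

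For most calcium genes the groups overlapped and the difference was small. Of the 51 genes 33 were lower and 18 higher in CSA by their group means (64.7% lower, against 58.9% of all genes), and the median difference, CSA minus vehicle, was -0.09 against -0.04 over all genes. For 41 of the 51 (80.4%, against 73.9% of all genes) the difference was under 0.3 in size. By limma 0 of the 51 passed at an adjusted p under 0.05, where 0% of all genes were called, and 2 had an unadjusted p under 0.05, where 2.83% of all genes did. These 2, Itpr3 and Cacnb1, were also the only measured members that stood at least 1.5-fold apart without overlap of the groups, a property of 5.9% of all genes; 1.99% of all genes met it in the lower direction and 3.91% in the higher, where 0 members did. Groups of 2 arrays cannot give an exact permutation p below 0.333.

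**Figure D1:**
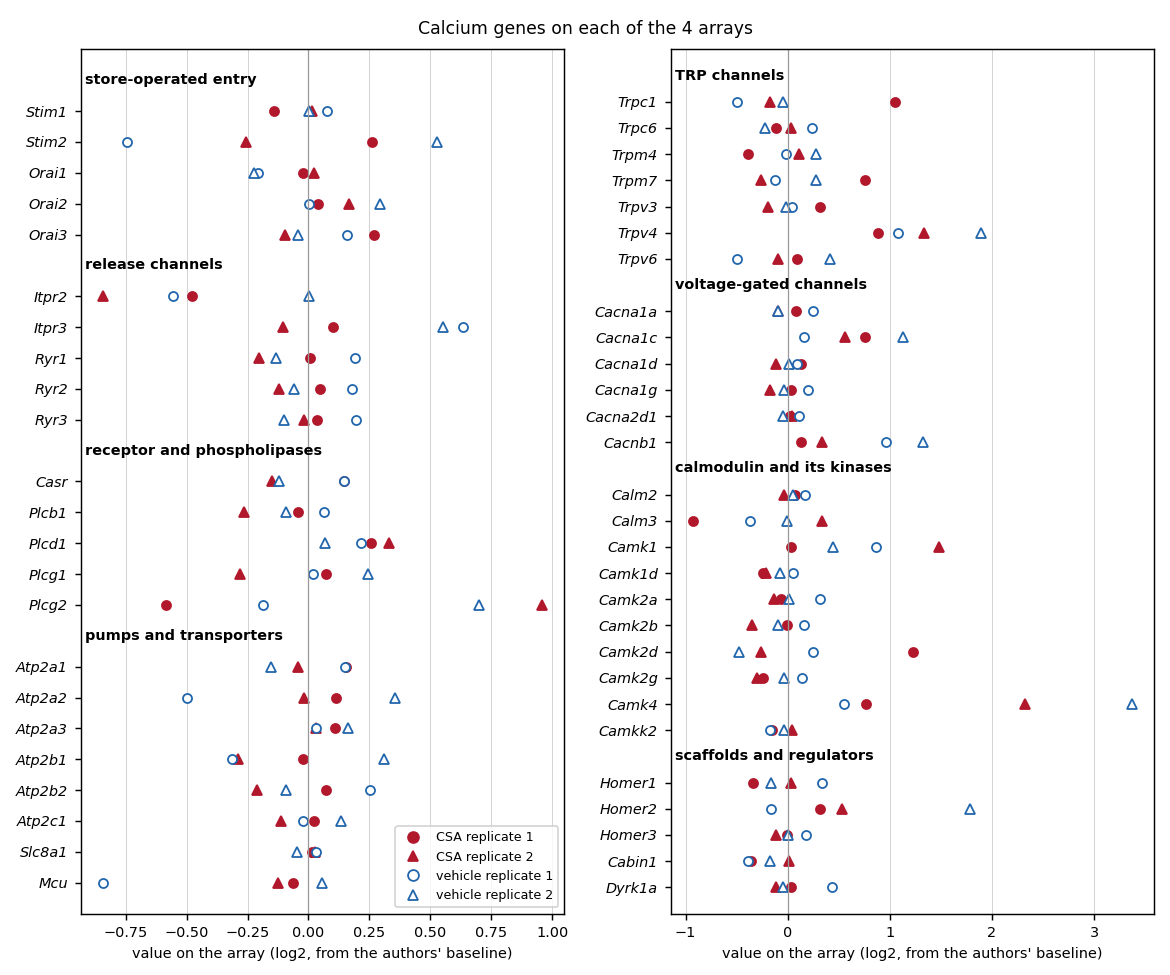
Log2 value of each of the 51 measured calcium genes (rows, by class) on each array, relative to the authors' baseline for that row. Filled red symbols are CSA and open blue symbols vehicle, circles replicate 1 and triangles replicate 2; the panels have different x axes. Cacnb1 and Itpr3 are the genes whose red and blue symbols do not overlap and whose group means stand at least 1.5-fold apart, and Camk4 has the widest spread within groups.

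Without regard to size, the groups did not overlap for 8 of the 51 (15.7%), against 26.3% of all genes. Orai1 and Plcd1 were higher in CSA in this sense, and 10.9% of all genes were. Itpr3, Cacnb1, Camk1d, Camk2a, Camk2g and Homer3 were lower, as were 15.4% of all genes. The share of members without overlap thus lay below that of the whole table.

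Cacnb1 encodes a beta subunit of voltage-gated calcium channels, which brings the pore to the membrane. It stood at 0.13 and 0.33 under CSA and at 0.96 and 1.32 under vehicle. Both vehicle values lay above both CSA values, and all 4 lay above the baseline. CSA minus vehicle came to -0.91 ± 0.21, with a 95% interval of -1.48 to -0.33; here and below ± is the moderated standard error of limma for 2 arrays against 2. limma gave it an unadjusted p of 0.0117 and an adjusted p of 0.999 over 19935 genes. With each array left out in turn the difference lay between -1.09 and -0.73.

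Itpr3 encodes a receptor for inositol trisphosphate, the channel through which the reticulum releases calcium. Its values were 0.10 and -0.10 with CSA against 0.63 and 0.55 with vehicle. Here the groups were again apart, by more than the spread within either. The difference was -0.59 ± 0.17 (95% interval -1.06 to -0.12, limma unadjusted p = 0.0247, adjusted p = 0.999). It lay close to the 1.5-fold bound of 0.585 and was -0.57 with arrays centred on their medians, which is inside that bound. Leaving out 1 array gave differences between -0.69 and -0.49, with -0.49 without CSA replicate 2 and -0.55 without vehicle replicate 1.

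The stretches before the start sites of both genes are shown because these 2 genes passed the fold bound, and because NFAT, the factor downstream of calcineurin, binds a core of GGAAA. They are the 250 bases before the most upstream start that RefSeq gives on build GRCm38.p6, 5′ to 3′ on the gene's strand, with matches to GGAAA or its reverse complement in capitals. The window of Cacnb1 is chr11:98022628-98022877 on the minus strand and that of Itpr3 is chr17:27057054-27057303 on the plus strand.
Cacnb1: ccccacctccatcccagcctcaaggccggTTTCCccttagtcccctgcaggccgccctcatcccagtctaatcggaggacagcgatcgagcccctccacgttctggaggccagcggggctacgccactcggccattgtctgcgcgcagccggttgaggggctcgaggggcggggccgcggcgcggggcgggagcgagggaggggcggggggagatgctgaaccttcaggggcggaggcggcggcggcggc
Itpr3: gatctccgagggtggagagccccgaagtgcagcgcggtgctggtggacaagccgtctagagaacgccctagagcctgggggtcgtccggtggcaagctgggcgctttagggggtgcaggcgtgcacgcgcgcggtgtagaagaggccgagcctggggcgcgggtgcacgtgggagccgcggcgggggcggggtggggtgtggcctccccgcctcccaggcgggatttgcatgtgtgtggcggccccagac
Cacnb1 has 1 match, on the opposite strand, from 221 to 217 bases before the start, and Itpr3 has 0. Over all 27025 genes with such a window 55.6% hold at least 1 match on either strand, and of the 42 measured members with a window 19 (45.2%) do. The AP-1 motif TGANTCA occurs in 2 of the 42 windows (4.76%, against 6.85% of all). The cyclic AMP response element TGACGTCA, bound by the factor CREB that CaM kinase IV phosphorylates, occurs in 0 of 42 against 1.6% of all. No motif among these contains another, all were searched on both strands, and a match is a description of the letters alone. The windows of Cacnb1 and Itpr3 were 73.2% and 72.0% G and C; the median was 67.4% over the members and 52.0% over all genes.

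Among the genes of store-operated entry no difference reached 0.3 in size. Orai1, the main pore of this entry, was -0.02 and 0.02 with CSA and -0.21 and -0.22 with vehicle. The groups did not overlap and the arrays of each group nearly coincided, with a within-group SD of 0.02. Its difference was 0.22 ± 0.15 (95% interval -0.21 to 0.64), and it lay between 0.19 and 0.24 with any 1 array left out. The standard error exceeds what those arrays alone would give, because limma draws each gene's variance towards that of all genes.

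Stim1, the sensor of the store, was -0.14 and 0.01 with CSA against 0.08 and 0.003 with vehicle, with overlap (-0.10 ± 0.16). Stim2, the sensor of small losses from the store, was 0.26 and -0.26 with CSA and -0.74 and 0.53 with vehicle. Both vehicle arrays of Stim2 lay outside the CSA pair, 1 on each side. Stim2 differed by 0.11 ± 0.50; leaving out vehicle replicate 1 gave -0.52 and leaving out vehicle replicate 2 gave 0.75. The other pore genes, Orai2 and Orai3, differed by -0.05 ± 0.19 and 0.03 ± 0.21. Orai2 was among the genes with 2 rows.

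All 5 measured release channel genes were lower in CSA by their means, with a median of -0.13. Itpr2, another inositol trisphosphate receptor, was -0.48 and -0.84 with CSA and -0.55 and 0.004 with vehicle. Vehicle replicate 1 lay between the CSA arrays, so the groups overlapped (-0.39 ± 0.28). Leaving out vehicle replicate 2 gave -0.11 and leaving out vehicle replicate 1 gave -0.67. After quantile normalization its groups no longer overlapped and stood 1.5-fold apart. The ryanodine receptor genes Ryr1, Ryr2 and Ryr3, whose channels release calcium in muscle and nerve, differed by -0.13 ± 0.20, -0.10 ± 0.18 and -0.04 ± 0.19. Vehicle replicate 1 was the highest array for each of these 3, and without it all 3 differences turned positive, to between 0.02 and 0.11. For 4 of the 5 release channels vehicle replicate 1 held the highest value and for 4 of the 5 CSA replicate 2 the lowest.

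Upstream of release, Casr encodes the receptor through which keratinocytes sense calcium outside the cell. It was 0.14 and -0.15 with CSA and 0.15 and -0.12 with vehicle, so replicate 1 was the higher array of both groups and the difference was near 0 (-0.01 ± 0.21; 0.06 after quantile normalization and 0.01 with centred arrays). Plcd1, a phospholipase whose loss impairs hair formation in mice, was 0.26 and 0.33 with CSA against 0.21 and 0.07 with vehicle. The groups of Plcd1 did not overlap, by a narrow margin (0.15 ± 0.16), and the difference stayed between 0.08 and 0.22 with any 1 array left out. Plcg1, which receptor tyrosine kinases activate, was 0.07 and -0.28 with CSA and 0.02 and 0.25 with vehicle (-0.24 ± 0.21). Plcb1, which G proteins activate, differed by -0.14 ± 0.18.

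Plcg2, best known from B cells, had a wide spread in both groups. It was -0.58 and 0.96 with CSA and -0.19 and 0.70 with vehicle. In both groups replicate 2 lay far above replicate 1, and the difference between the groups was -0.07 ± 0.64. Without CSA replicate 1 it was 0.71 and without CSA replicate 2 it was -0.84.

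Of the 8 measured pump and transporter genes 4 were higher and 4 lower (median 0.001), and 0 had groups apart, where 26.3% of all genes did. Atp2a2, the reticulum pump of most tissues and of keratinocytes, was 0.11 and -0.02 with CSA and -0.50 and 0.35 with vehicle. The CSA arrays lay between the vehicle arrays, which were 1 low and 1 high (0.12 ± 0.34). Atp2c1, the Golgi pump, was 0.02 and -0.11 with CSA against -0.02 and 0.13 with vehicle (-0.10 ± 0.17; 95% interval -0.56 to 0.36). The reticulum pumps Atp2a1, of fast muscle, and Atp2a3 differed by 0.06 ± 0.20 and -0.03 ± 0.16.

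The surface membrane pump genes Atp2b1 and Atp2b2 both differed by -0.15 (± 0.28 and ± 0.22). Slc8a1, the sodium and calcium exchanger, had 4 values between -0.05 and 0.03 and differed by 0.03 ± 0.16. Mcu, the pore by which mitochondria take up calcium, was -0.06 and -0.12 with CSA and -0.84 and 0.06 with vehicle. Vehicle replicate 1 alone was low. Its 0.30 ± 0.35 became -0.15 when that array was left out and 0.75 when vehicle replicate 2 was.

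**Figure D2:**
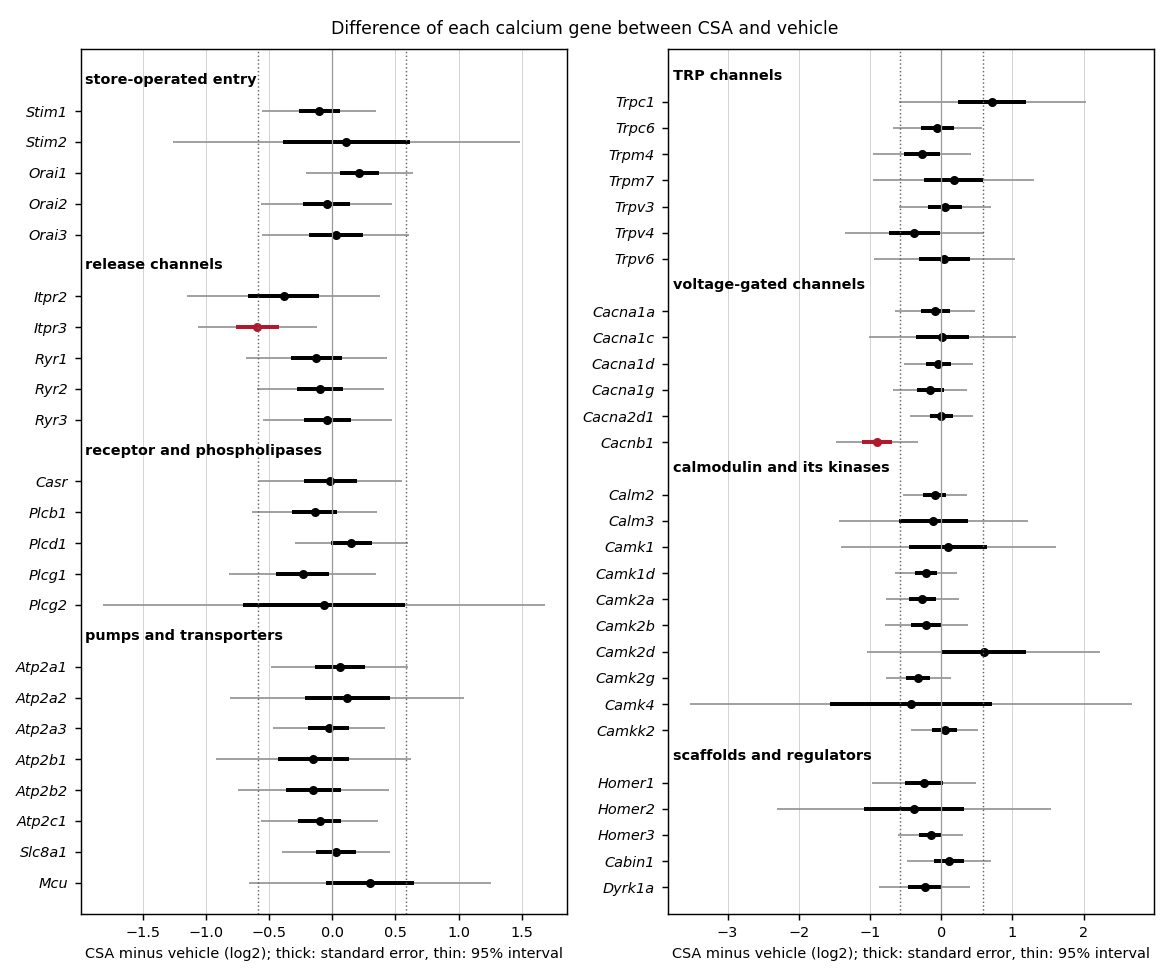
Difference between the group means, CSA minus vehicle, in log2 units for each of the 51 calcium genes. Thick bars are limma's standard errors, thin bars 95% intervals not adjusted for the number of genes, and dotted lines mark 1.5-fold in either direction; the panels have different x axes. Cacnb1 at -0.91 and Itpr3 at -0.59, in red, are the 2 genes whose interval leaves out 0.

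TRP channel genes had a median difference of 0.05, with 4 of 7 higher, and 0 of the 7 had groups apart, against the same 26.3% of all genes. Trpv4, a channel for warmth and osmotic stress in keratinocytes, was 0.88 and 1.33 with CSA and 1.08 and 1.89 with vehicle. All 4 arrays lay well above the baseline and the groups interleaved (-0.38 ± 0.36). With vehicle replicate 2 left out it was 0.02, and with vehicle replicate 1 left out -0.78. Trpv3, a warmth channel of keratinocytes whose overactivity causes hair loss in mice, was 0.32 and -0.20 with CSA and 0.04 and -0.02 with vehicle (0.05 ± 0.24).

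Trpv6, a highly calcium-selective entry channel, was 0.10 and -0.10 with CSA and -0.50 and 0.41 with vehicle. Its CSA arrays lay between the vehicle arrays (0.05 ± 0.36, and -0.03 after quantile normalization). Trpc1, a non-selective cation channel, was 1.05 and -0.17 with CSA and -0.50 and -0.05 with vehicle. CSA replicate 1 alone was high. Its difference of 0.71 ± 0.48, the highest among the measured members, was 0.10 without that array and 1.32 without CSA replicate 2. Trpm7, a channel joined to a kinase domain, also had its highest value on CSA replicate 1 (0.76) and differed by 0.17 ± 0.41. Trpm4, which calcium opens, and Trpc6 differed by -0.27 ± 0.25 and -0.05 ± 0.23.

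Apart from Cacnb1, the voltage-gated channel genes had differences between -0.15 and 0.02. Cacna1c, the pore of the L-type channel, was 0.76 and 0.56 with CSA and 0.16 and 1.13 with vehicle. Every array lay above the baseline, and the CSA pair fell between the vehicle arrays (0.02 ± 0.38). The value moved to -0.47 when vehicle replicate 1 was left out and to 0.50 when vehicle replicate 2 was. The pore genes Cacna1a, Cacna1d and Cacna1g differed by -0.09 ± 0.20, -0.04 ± 0.18 and -0.15 ± 0.19. Cacna2d1, an auxiliary subunit, differed by 0.002 ± 0.16. So among the 6 measured genes of these channels the beta subunit gene alone stood 1.5-fold apart.

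Both measured calmodulin genes had groups that overlapped. Calm2 was 0.07 and -0.03 with CSA against 0.17 and 0.05 with vehicle, a difference of -0.09 ± 0.16 with a 95% interval of -0.54 to 0.36. Calm3 was -0.93 and 0.34 with CSA and -0.37 and -0.01 with vehicle. CSA replicate 1 was the lowest and CSA replicate 2 the highest of its 4 arrays (-0.11 ± 0.48), and the difference was 0.52 without the first and -0.74 without the second. Calmodulin genes encode the same protein, so these rows report separate transcripts of 1 product.

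Of the CaM kinase II genes 3 were lower and 1 higher in CSA by their means. Camk2g was -0.24 and -0.30 with CSA and 0.14 and -0.04 with vehicle, a difference of -0.32 ± 0.17 without overlap (95% interval -0.78 to 0.13). Camk2a, the main neuronal form, was -0.07 and -0.14 with CSA against 0.32 and 0.01 with vehicle, again without overlap but by a narrow margin (-0.26 ± 0.19). Camk2b differed by -0.21 ± 0.21 with overlap. With 1 array left out they ran from -0.41 to -0.23 for Camk2g, from -0.42 to -0.11 for Camk2a and from -0.38 to -0.03 for Camk2b. Without overlap the signs of Camk2g and Camk2a could not turn in this way, whereas that of Camk2b could and did not. Camk2d, the form of heart and many other tissues, was 1.23 and -0.27 with CSA and 0.24 and -0.48 with vehicle. As for Trpc1, its high value was on CSA replicate 1. The difference of 0.60 ± 0.60 was -0.15 without that array and 1.34 without CSA replicate 2.

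Camk4, the kinase of neurons and T cells that acts in the nucleus, had the largest within-group spread among the measured members. It was 0.76 and 2.32 with CSA and 0.56 and 3.38 with vehicle. All arrays lay above the baseline, with replicate 2 of each group far above replicate 1. Its within-group SD of 1.61 was at the 99.8th percentile of all genes, against a difference of -0.42 ± 1.13. Without vehicle replicate 2 the difference was 0.99 and without vehicle replicate 1 it was -1.83, so these arrays give no direction for it.

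Camk1 was 0.03 and 1.48 with CSA and 0.87 and 0.45 with vehicle (0.10 ± 0.55), with the CSA arrays on either side of the vehicle pair. Camk1d, of the same kinase family, was -0.24 and -0.21 with CSA against 0.05 and -0.07 with vehicle. Its groups did not overlap and the difference was -0.22 ± 0.16. Camkk2, which activates CaM kinases I and IV, differed by 0.05 ± 0.17.

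Among the scaffolds and regulators, Cabin1 encodes an inhibitor that binds calcineurin, and Dyrk1a a kinase that phosphorylates NFAT and favours its export from the nucleus. Cabin1 was -0.36 and 0.01 with CSA and -0.39 and -0.17 with vehicle (0.11 ± 0.21). Dyrk1a was 0.03 and -0.11 with CSA and 0.43 and -0.04 with vehicle, with vehicle replicate 1 above the other arrays (-0.24 ± 0.23, and 0.002 without that array). The groups of both genes overlapped.

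Homer proteins link surface receptors to inositol trisphosphate receptors and ryanodine receptors. Homer2 was 0.32 and 0.53 with CSA and -0.16 and 1.79 with vehicle, with the CSA arrays between the vehicle arrays (-0.38 ± 0.70). Without vehicle replicate 1 its difference was -1.36 and without vehicle replicate 2 it was 0.59. Homer3 was -0.01 and -0.11 with CSA against 0.18 and 0.01 with vehicle, apart by a narrow margin (-0.15 ± 0.17). Homer1 differed by -0.24 ± 0.27.

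Spread within the groups limited what could be seen for some genes more than for others. For 34 of the 51 the 95% interval of the difference lay within 2-fold in both directions, and for 17 it reached beyond. The same count was not made over all genes, so whether it is particular to the members was not tested. Within-group SD was at or above the 90th percentile of all genes for 8 members, namely Stim2, Plcg2, Trpc1, Calm3, Camk1, Camk2d, Camk4 and Homer2. The median within-group SD was 0.21 for the members and 0.22 for all genes. Of the 51, 18 kept the sign of their difference whichever array was left out (35.3%, against 41.6% of all genes), 15 lower and 3 higher in CSA. The 3 were Orai1, Plcd1 and Trpc1. All 8 members without overlap are among the 18, since leaving out 1 array cannot turn the sign of such a gene.

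**Figure D3:**
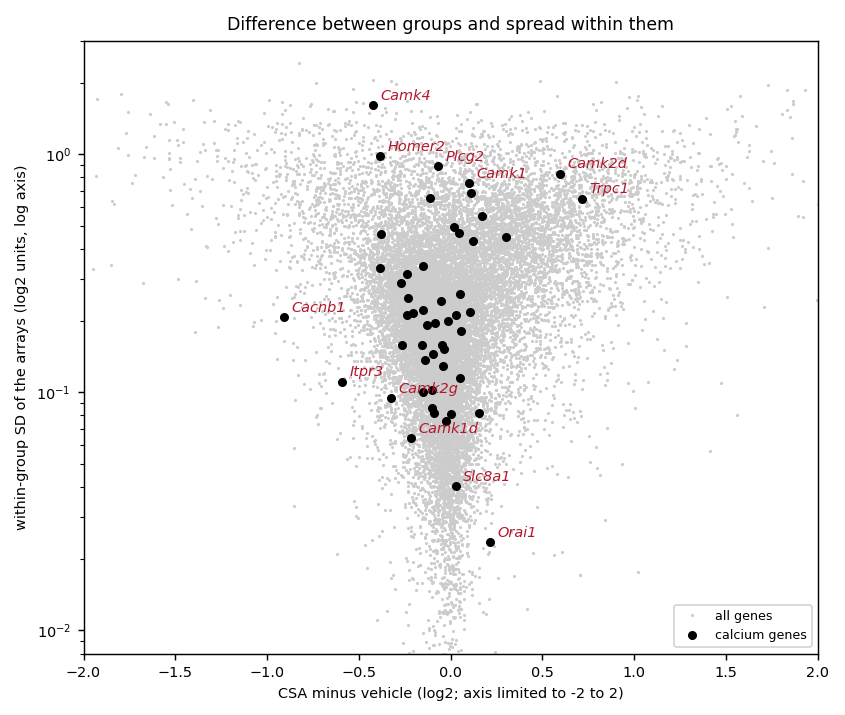
Difference between group means (x axis, log2, CSA minus vehicle) against the within-group SD of the 4 arrays (y axis, log scale) for all 19935 genes (grey) and the 51 calcium genes (black). Cacnb1 and Itpr3 lie to the left at a modest spread, Camk4 at the top with an SD of 1.61 and Orai1 at the bottom with 0.02; genes outside the axis limits are not drawn.

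**Figure D4:**
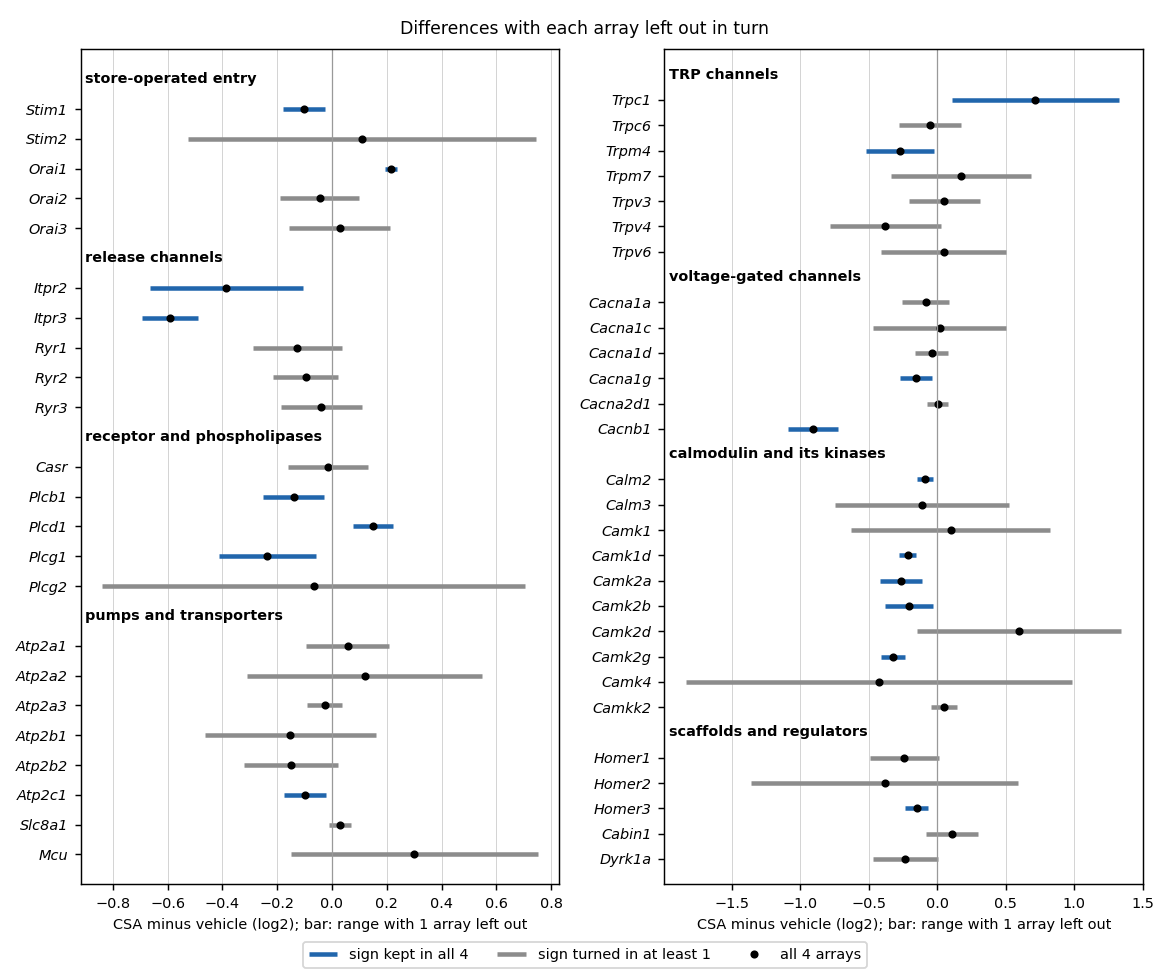
Range of each gene's difference (log2, CSA minus vehicle) when each of the 4 arrays is left out in turn (bars), with the difference over all arrays (black points); the panels have different x axes. Blue bars, for 18 genes, stay on 1 side of 0, and grey bars, for 33 genes, cross it.

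Other genes of the calcium system, listed by role, were measured beside the members. Of 68 such genes 54 were lower and 14 higher in CSA (79.4% lower, against 58.9% of all genes; median -0.10 against -0.04), and limma called 0 of them. Without vehicle replicate 1 the number lower was 39 of 68, when 47.6% of all genes were lower. That array held the highest value for 40 of the 68, and for 43.2% of all genes. The groups did not overlap for 21 of the 68 (30.9%, against 26.3% of all genes). Its part in the count was not tested beyond this.

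By role, 25 of the 29 other entry and voltage-gated channel genes were lower (median -0.14). Trpm3, a heat-sensing cation channel, was 0.25 and -0.26 under CSA and 0.37 and 0.80 under vehicle (-0.59 ± 0.28). Leaving out 1 array gave -0.85 to -0.34, and it was inside the 1.5-fold bound after quantile normalization (-0.57) and with centred arrays (-0.56). Saraf, which turns store-operated entry off, went the other way, at 0.38 and 0.15 with CSA and -0.69 and 0.01 with vehicle (0.60 ± 0.30). Vehicle replicate 1 alone was low for Saraf, and without it the difference was 0.25, inside the 1.5-fold bound. These 2 were the genes among the 68 that stood 1.5-fold apart without overlap (2.94%, against 5.9% of all genes), and neither passed limma's test (adjusted p = 0.999 for both).

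Of 15 other pump, exchanger, organelle channel and mitochondrial uptake genes 11 were lower (median -0.07). Tpcn1, a channel of acidic organelles, differed by -0.35 ± 0.17, and Slc8b1, the mitochondrial exchanger, by -0.26 ± 0.16. Of 11 other genes listed under calmodulin, kinases and phospholipases 10 were lower (median -0.15), with Plcb3 at -0.18 ± 0.18 (-0.053 without CSA replicate 2). The measured ones were kinase-family and phospholipase genes, and none was a calmodulin gene. Of 13 genes for calcium buffers and reticulum chaperones 8 were lower (median -0.04). In that list the chaperone gene Canx differed by -0.36 ± 0.17 and Pdcd6, which encodes a calcium-binding adaptor, by 0.49 ± 0.23 (0.27 without CSA replicate 1).

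Marker lists of the bulge and of other skin cells are given beside these values, as medians of centred values, for which a summed level has no meaning. Of 12 bulge markers 9 were lower in CSA, with medians of 0.24 and 1.01 with CSA and 0.71 and 1.03 with vehicle. That number was 6 without CSA replicate 1 or without vehicle replicate 2, 10 without CSA replicate 2 and 11 without vehicle replicate 1. Of 17 measured markers of epidermal differentiation 15 were lower, with medians of -0.62 and -0.30 with CSA and 0.52 and -0.32 with vehicle, and vehicle replicate 1 was highest for 14. That list held the calmodulin-like genes Calml3 and Calm4. Calml3 was 0.24 and 1.67 with CSA and 2.34 and 2.40 with vehicle (-1.42 ± 0.52, limma adjusted p = 0.999). Calm4 differed by -0.73 ± 0.78 with overlap. The 10 smooth muscle, 10 fibroblast and 10 endothelial markers were all lower, by medians of -0.10, -0.17 and -0.14. Of 14 skeletal muscle markers 9 were lower, of 10 nerve and Schwann cell markers 8, and of 14 immune cell markers 9. At least 1.5-fold lower in CSA without overlap were 3 of the 12 bulge and 7 of the 17 epidermal markers, against 1.99% of all genes. In both lists 0 were higher in this sense. Among the bulge markers Postn differed by -0.79 ± 0.18 (limma unadjusted p = 0.0109, adjusted p = 0.999).

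Vehicle replicate 1 had the highest median in each of these lists of non-bulge cells, from 0.098 for fibroblast to 0.52 for epidermal markers. It also had the highest median over all genes, at 0.067, where the other arrays lay between -0.020 and 0.007. Without vehicle replicate 1, 5 of 10 smooth muscle, 7 of 10 fibroblast and 6 of 14 skeletal muscle markers were lower, when 47.6% of all genes were. The median of the epidermal list was then -0.09 in place of -0.77. Without the same array the differences of Cacnb1 and Itpr3 were -1.09 and -0.55. The part of such cells in the values of Cacnb1 and of the ryanodine receptor genes, which muscle uses, was not tested.

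**Figure D5:**
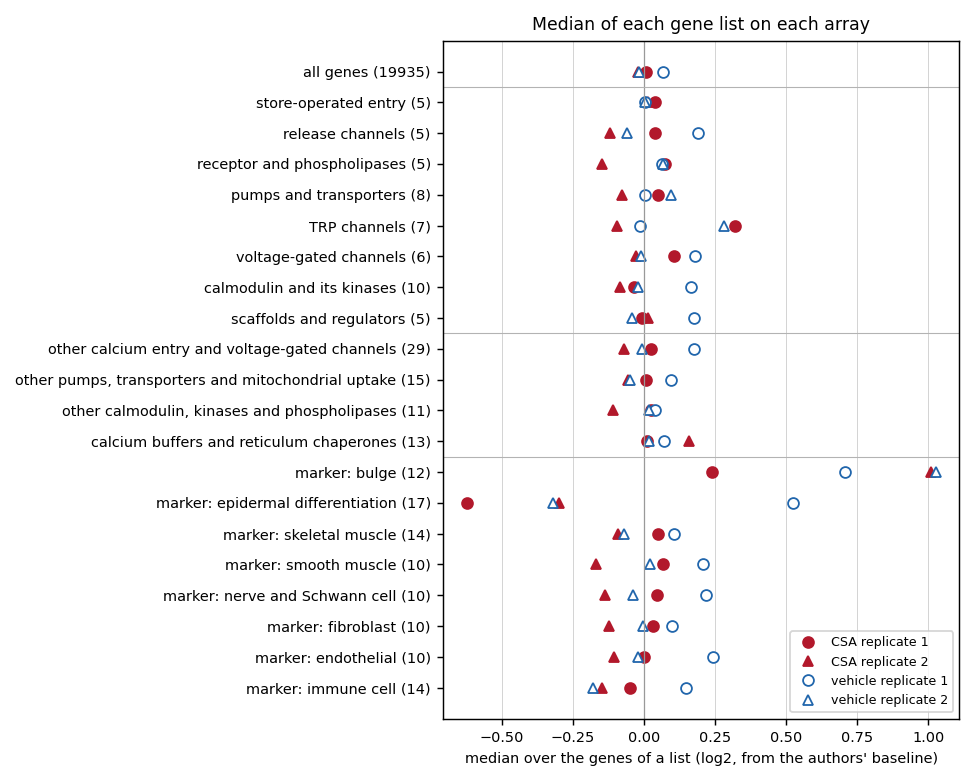
Median over the genes of each list (rows, number of genes in brackets) on each array, in log2 units from the authors' baseline; filled red symbols are CSA, open blue symbols vehicle, circles replicate 1 and triangles replicate 2. Every calcium class but the TRP channels lies between -0.15 and 0.19 on all arrays. Vehicle replicate 1 is the rightmost symbol for all genes and in each list of non-bulge cells, and the bulge list is lowest on CSA replicate 1.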

How the data were processed

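RNA of sorted bulge cells was measured on 4 one-colour arrays, 2 per group; per the labels' protocols 20 ng of total RNA was amplified in 1 round. The deposited values were taken as log2 numbers centred per row, which is an inference from the values. Within 1e-04, the median of the 4 arrays was 0 in 11.38% of rows and the mean in 0.08%. The submitters' processing notes give build mm8 and nothing more. How the arrays were read, background-corrected and normalized, and which log base and baseline were used, is not given in the sources at hand. The number of arrays limits the precision, and no value of signal over background was used.

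Of 28815 rows 21780 named 1 gene through the platform annotation, 1605 named several and 5430 were unlisted. They made 19935 genes. Where a gene had several rows, the one with the highest mean stood for it, which on centred values need not be the brightest. Differences were fitted with limma 3.58.1 in R 4.3.3 (lmFit, eBayes without a trend, no block, two-sided, Benjamini-Hochberg over all genes). The prior had 2.13 degrees of freedom; intervals used the moderated 4.13. Nothing in the labels pairs same-numbered samples. The scripts were tested on simulated data. Promoter windows came from RefSeq.

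Members, classes, lists and the rule for naming genes (genes 1.5-fold apart without overlap, the largest moderated t in each class and direction, and a set with known roles) were chosen with earlier results of these data known. Members shown beyond the rule, such as Camk4, Camk1, Plcg2, Homer2 and Stim2, were chosen after their values were seen. Other settings tried were quantile normalization, median centring, a variance trend, a filter on the mean, the mean of a gene's rows, a replicate block and leaving out each array.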

Additional observations from a re-analysis of the deposited data

How the results depend on the processing

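With all 4 arrays limma called 0 calcium genes, and 0 of all genes, under every setting tried. The filter on the mean kept 40 of the 51 calcium genes and 14951 of the 19935 genes, and the rest were not tested there. The count 1.5-fold apart without overlap was 2; it was 1 (Cacnb1) with arrays centred on their medians and 3 (with Itpr2) after quantile normalization. With 1 array left out it lay between 4 and 8, when 7.85% to 16.91% of all genes met it, since 1 array against 2 overlaps less often. The members' median of -0.09 lay between -0.15 and -0.03 over all settings. The labels give same-numbered arrays a shared number and do not say whether they form pairs. Their deviations from the group means correlated at 0.236 over genes, which are not independent. Whether they are paired was not tested. A replicate block leaves every difference as it is here, so the count of 2 and the median of -0.09 could not change. With the block limma's calls were 0, and 914 of all genes had an unadjusted p under 0.05 in place of 565. Neither the trend nor the filter changes a difference, so they could turn no sign.

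Many differences changed sign in at least 1 setting, among them larger ones such as Camk2d (0.60) and Camk4 (-0.42) with 1 array left out, and none of these genes passed limma's test. After quantile normalization Stim2 was -0.021, Ryr3 0.022, Casr 0.057, Trpc6 0.040 and Trpv6 -0.026; Casr was 0.013 with centred arrays. With the mean of a gene's rows Slc8a1 was -0.018 and Cacna2d1 -0.037. Leaving out each array in turn turned 33 differences. Among entry and release genes these were Stim2 (-0.52 to 0.75), Orai2 (-0.19 to 0.10), Orai3 (-0.16 to 0.21), Ryr1 (-0.29 to 0.036), Ryr2 (-0.21 to 0.022), Ryr3 (-0.19 to 0.11), Casr (-0.16 to 0.13) and Plcg2 (-0.84 to 0.71). Among pumps and transporters they were Atp2a1 (-0.093 to 0.21), Atp2a2 (-0.31 to 0.55), Atp2a3 (-0.092 to 0.038), Atp2b1 (-0.46 to 0.16), Atp2b2 (-0.32 to 0.022), Slc8a1 (-0.010 to 0.070) and Mcu (-0.15 to 0.75). Membrane channels were Trpc6 (-0.28 to 0.18), Trpm7 (-0.34 to 0.68), Trpv3 (-0.21 to 0.31), Trpv4 (-0.78 to 0.024), Trpv6 (-0.41 to 0.50), Cacna1a (-0.26 to 0.087), Cacna1c (-0.47 to 0.50), Cacna1d (-0.16 to 0.080) and Cacna2d1 (-0.079 to 0.082). Kinases, calmodulin and scaffolds were Calm3 (-0.74 to 0.52), Camk1 (-0.63 to 0.83), Camk2d (-0.15 to 1.34), Camk4 (-1.83 to 0.99), Camkk2 (-0.045 to 0.14), Homer1 (-0.49 to 0.012), Homer2 (-1.36 to 0.59), Cabin1 (-0.082 to 0.29) and Dyrk1a (-0.47 to 0.0020). The cause was not tested. Counts of other calcium genes, a check chosen after seeing the data, lay between 39 and 51 of 68 lower over the scalings and arrays left out. The alternatives for Trpm3, Saraf and the 5 further named genes of that list were also chosen after seeing the data. Of their differences 0 changed sign, which was largely fixed beforehand. Their groups do not overlap, so leaving out 1 array could not turn a sign. The trend, the filter and the block leave each difference as it is. With 2 arrays per group a small difference cannot be told from no difference.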

Other observations

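Of the 51 calcium genes 6 had 2 rows, and the rows of 1 gene did not always follow each other. The second row of Dyrk1a was 0.47 and -0.80 with CSA and -0.05 and 0.05 with vehicle, where the row that stood for the gene had its highest value on vehicle replicate 1; the differences were -0.17 and -0.24. The second row of Orai2 was -0.02 and -0.06 with CSA and 0.14 and 0.18 with vehicle, without overlap and with a difference of -0.20, while the row used had overlap and a difference of -0.05. Both rows of Homer2 were highest on vehicle replicate 2 (1.79 and 1.34) and differed by -0.38 and -0.62. Rows of Calm2 (-0.09 and 0.01), Slc8a1 (0.03 and -0.07) and Cacna2d1 (0.002 and -0.07) differed little between the groups.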
